A study of Homo sapiens with 6 samples.

Results

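Receptors for neurotransmitters and extracellular purines were examined in astrocytes derived from H1, an established human embryonic stem cell line. The set held 127 protein-coding genes of the 19871 protein-coding genes, and of the 58217 genes in all, of the annotation. They were chosen by symbol and cover the ionotropic and metabotropic glutamate receptors, the GABA, glycine, acetylcholine, adrenergic, serotonin and dopamine receptors, and the P2X, P2Y and adenosine receptors. The symbols also take in P2RX5-TAX1BP3, a readthrough of P2RX5 into its neighbour. The study compared 3 libraries of astrocytes labelled control (forebrain) with 3 labelled ventral midbrain, numbered 2, 3 and 4 in each group. Both groups come from the same unmodified line as far as the labels say, and the sources used here do not give the treatments behind the regional character. The labels' cell type field names the stem cell, while the source field names astrocytes. No label states whether each library is a culture of its own, so the spread behind the p-values is that between these libraries and may be technical.

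As background, neurotransmitter receptors fall into ligand-gated channels, which open within milliseconds when transmitter binds, and G protein-coupled receptors, which act through adenylyl cyclase, phospholipase C or channels. Astrocytes are known to sense glutamate, GABA, noradrenaline, ATP and adenosine with such receptors, often by releasing calcium from internal stores. ATP released from cells acts on P2X channels and P2Y receptors, and enzymes on the cell surface convert it to adenosine, the ligand of the adenosine receptors.

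The libraries held 11617935 to 15391082 estimated reads from the 3' ends of polyadenylated transcripts. Such a library yields about the same number of reads per molecule whatever the transcript's length, so levels are given as CPM, each gene's reads scaled to a common library size, and compared between genes with no division by length. In bulk samples, fewer cells of a type and less RNA per cell cannot be told apart. All 12 astrocyte markers had reads in these libraries, with sums of 4844 to 5731 CPM in control and 5582 to 6415 CPM in ventral midbrain, and AQP4, SLC1A3 and NFIA were higher in ventral midbrain. Of these 12, 7 had positive and 5 negative log2 fold changes, and a fit with the replicate number as a block also called SOX9, GJA1 and CD44 as lower. VIM made up most of the astrocyte marker sum in each library, at 3609 ± 370 and 4485 ± 663 CPM (SD, n = 3 each), and did not pass. SLC1A2, ALDH1L1 and S100B were low, at means of 2.16, 1.28 and 7.43 CPM over the 6 libraries. The 14 neuron markers summed to 1348 to 2091 CPM in control and 857 to 1248 CPM in ventral midbrain, with no marker at 0 in all libraries and none of 13 tested past the threshold with edgeR, where 5 had an unadjusted p under 0.05 and DESeq2 called 4. The blocked fit called 6 of them, STMN2, DCX, NEFL, NEFM, INA and NSG2, all lower. STMN2 made up most of the sum's difference, at 1061 ± 409 and 449 ± 260 CPM (SD, n = 3 each). The median log2 fold change of the 13 was -0.88. Positive fold changes were found for 6 of the 13, up to 0.55 for GAP43, with TUBB3 at 0.032 and MAP2 at 0.11. The most negative was NSG2 at -2.68. The 8 mural and fibroblast markers summed to 828 to 1292 and 374 to 538 CPM, with COL1A1 and COL3A1 lower in ventral midbrain. COL1A1 carried that difference, at 910 ± 213 and 277 ± 38.4 CPM (SD, n = 3 each), while 5 of the 8 markers, DCN, LUM, RGS5, ACTA2 and TAGLN, had positive fold changes that did not pass, and the median log2 fold change of the list was 0.29. The 7 endothelial markers summed to 24.2 to 29.04 and 15.4 to 20.5 CPM. Of 6 tested, edgeR with or without the block, DESeq2 and limma voom called 0. Their log2 fold changes were negative for 5 and positive for 1, with a median of -0.35. With edgeR, 2 had an unadjusted p under 0.05. The 9 oligodendrocyte lineage markers summed to 159 to 199 and 132 to 142 CPM, with SOX10 and MAG at 0. BCAS1 was higher (edgeR adjusted p = 0.0284) and PDGFRA lower (0.00403). The 7 skeletal muscle markers summed to 0.832 to 6.73 and 8.31 to 17.4 CPM, with MYOG and MYH8 at 0. DES carried that difference, at 2.58 ± 2.39 and 10.7 ± 5.29 CPM (SD, n = 3 each). It did not pass (edgeR adjusted p = 0.24) and passed with the replicate block (0.00153). MYH3, the other marker of the 2 tested, had a log2 fold change of -0.85 and did not pass. Markers of GABAergic and glutamatergic neurons stayed at or under 7.87 CPM in sum, those of monoamine and cholinergic neurons at or under 1.07 CPM, with SLC6A4 and CHAT at 0, and those of microglia at or under 6.95 CPM, with AIF1, C1QA and C1QB at 0. The part of these other cell types' RNA in the receptor differences was not tested.

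Reads were found for 98 of the 127 genes, and 67 had at least 5 reads in at least 3 libraries and are called detected here. Together the receptors held 331, 414 and 406 CPM in control replicates 2, 3 and 4 and 380, 399 and 404 CPM in ventral midbrain. The means were 384 ± 45.4 and 394 ± 12.7 CPM (SD, n = 3 each), and the groups overlapped. Only 11 genes reached a mean of 10 CPM over the 6 libraries. From the highest down, those reported here were GABBR1 at 28.4 CPM, GRIA3 at 26.3, GABBR2 at 25.2, ADORA1 at 20.5, CHRM3 at 19.4, GRM3 at 16.1, GRIA1 at 12.96, GRIN2A at 12.1 and GRIN2B at 11.4 CPM. Genes next to each other in this order had overlapping library values. Adenosine, adrenergic and all glutamate families had most of their members detected, whereas only 2 of 17 serotonin, 1 of 5 muscarinic, 2 of 5 glycine and 2 of 5 dopamine receptor genes were.

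The 29 genes with no read in any library included GRIN1, which encodes the subunit that every NMDA receptor needs, and P2RY12 and P2RY13, ADP receptors known from microglia. GABRA4, GABRA6, GABRG1 and GABRR1 of the GABA-A family, CHRNA1, CHRNA2, CHRNB3 and CHRNG of the nicotinic family, DRD3, and ADRB3 also had none. A count of 0 allows a level of up to 0.195 to 0.257 CPM in a library (3 reads, counting error only), so it does not exclude lower levels at this depth. A further 31 genes had reads but were not detected. Among them DRD1 had 13 reads over all libraries and GRM5 had 6.

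**Figure D1:**
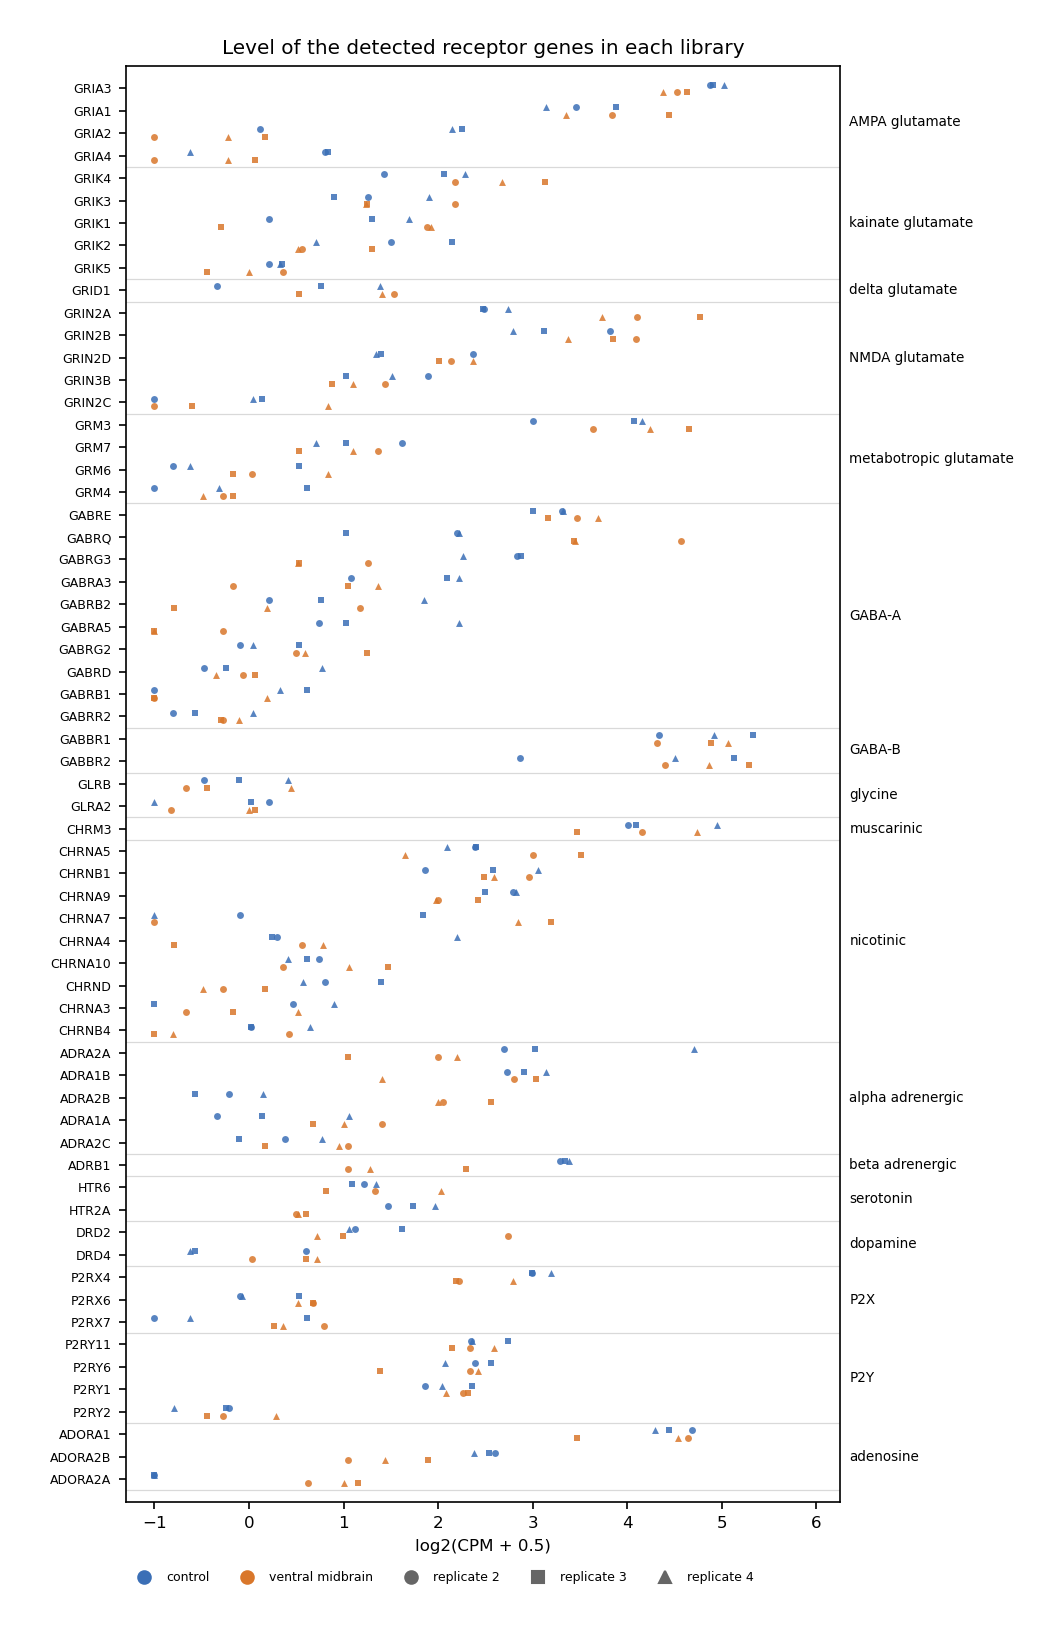
Level of the detected receptor genes reported here in each library, as log2(CPM + 0.5) on the horizontal axis, grouped by receptor family. Blue marks control and orange marks ventral midbrain, circles, squares and triangles mark replicates 2, 3 and 4, and reads are as Salmon divided them, with ADORA2A apart from its readthrough gene and CHRNA7 apart from CHRFAM7A. GABBR1 and GRIA3 lie among the highest, and GRIN2A, GABRQ and ADRA2B show higher orange than blue points.

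The comparison of ventral midbrain with control covered the 54 receptor genes with enough reads for the fit, out of 15984 genes tested. At an adjusted p under 0.05 (quasi-likelihood test of edgeR, Benjamini-Hochberg over all genes), 6 of the 54 were called, which is 11.1%, where 2.15% of all genes tested were. GRIN2A, ADRA2B and GABRQ were higher in ventral midbrain, GABRG3 and ADRB1 were lower, and the higher call of ADORA2A depends on how its reads are divided, as given below. Among all genes 1.06% passed as higher and 1.09% as lower. An unadjusted p under 0.05 was reached by 14 of the 54, against 12% of all genes. The library values of the groups did not overlap for 16 of them (29.6%), 5 higher and 11 lower, against 17.9% of all genes. The median log2 fold change of the 54 was 0.18, with 29 positive and 25 negative, and that of all genes tested was 0.014. Their median absolute log2 fold change was 0.63, where that of all genes was 0.25. These sets were not matched for expression level, and noise in low counts also widens fold changes. The part of such noise in this difference was not tested. Same-numbered libraries of the groups deviated together, and the fit with the replicate block called 9 of the 54, where it called 8.13% of all genes. The 3 genes it added to the 6, ADRA2A and GABRA5 among them, were all lower in ventral midbrain. DESeq2 called 8 (4.67% of all genes), the 6 with ADRA2A and GABRA5, and limma voom called 3 (2.1% of all genes), GRIN2A, ADRB1 and ADORA2A. With no filter on low counts edgeR called 10 (3.69% of all genes), the 9 of the blocked fit and GRIA2. The kainate, metabotropic glutamate, acetylcholine, dopamine, serotonin and P2Y receptors had no call in any of these fits.

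**Figure D2:**
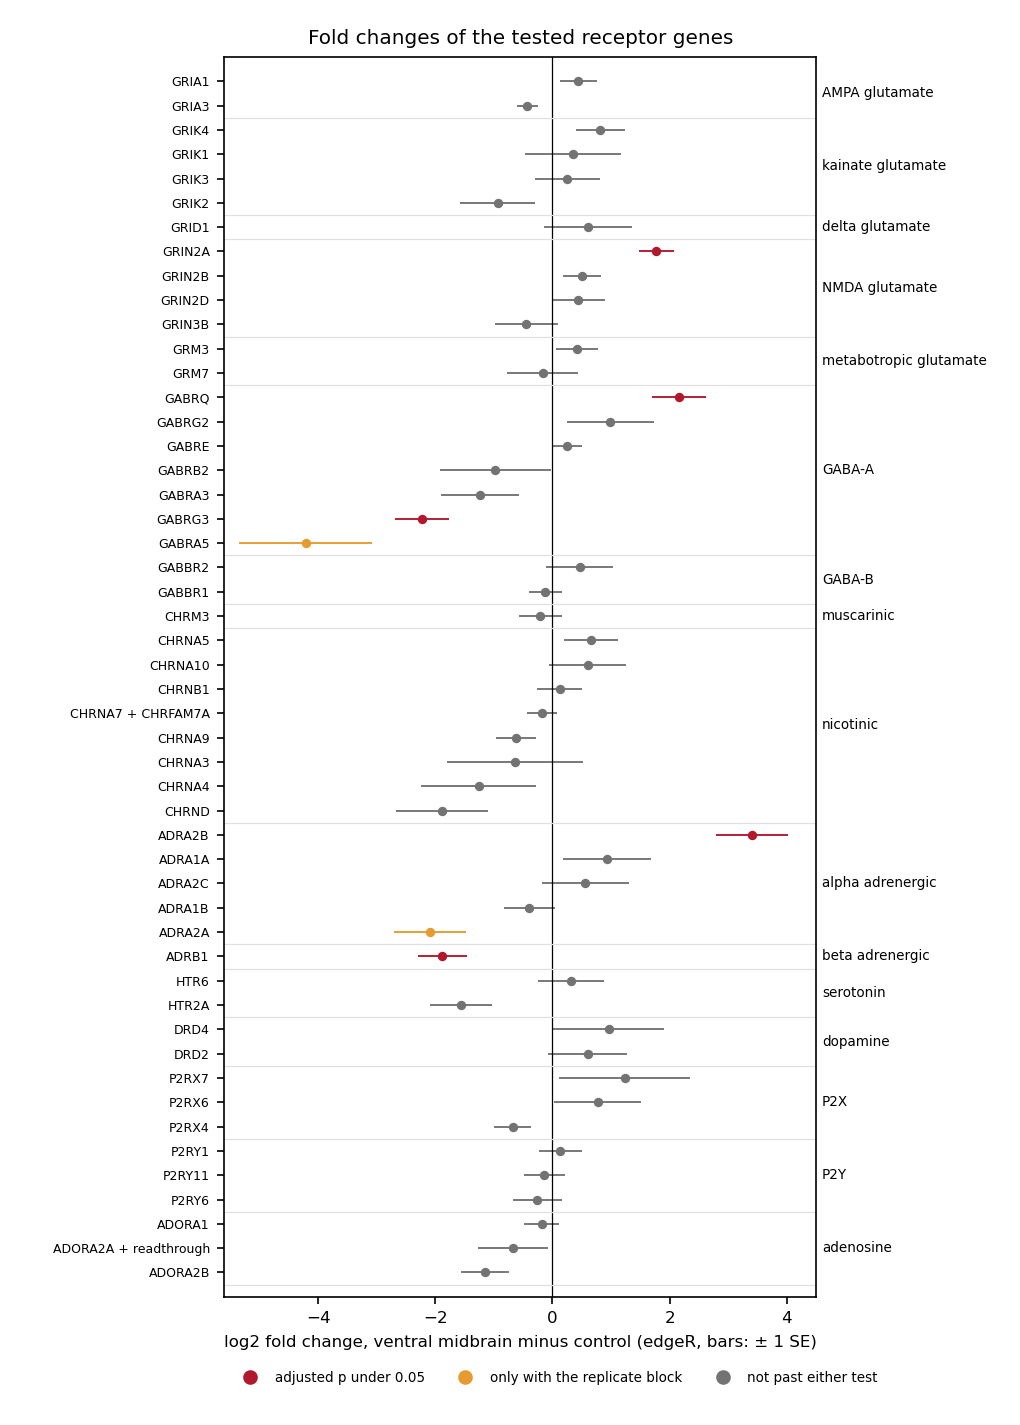
Log2 fold change, ventral midbrain minus control, of the tested receptor genes reported here, from edgeR, with bars of 1 standard error on either side. ADORA2A is shown summed with its readthrough gene and CHRNA7 summed with CHRFAM7A. Red marks an adjusted p under 0.05 in the fit without the block. Orange marks a gene that edgeR called with the replicate block and not without it. The remaining genes, in grey, passed neither of these edgeR fits, and DESeq2 and limma voom are not shown.

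Of the glutamate-gated channels, the NMDA receptor family carried a called difference. GRIN2A (ENSG00000183454.16, GRCh38 chromosome 16, 9753404 to 10182754, minus strand) encodes GluN2A, a subunit that binds glutamate. Its level was 5.12, 5.05 and 6.20 CPM in control replicates 2, 3 and 4 and 16.6, 26.7 and 12.8 CPM in ventral midbrain. Every ventral midbrain library lay more than 2 times above every control library. The means were 5.46 ± 0.646 and 18.7 ± 7.19 CPM (SD, n = 3 each), a log2 fold change of 1.78 ± 0.30 (SE) with an edgeR adjusted p of 0.0148. GRIN2B, which encodes the GluN2B subunit, held 13.6, 8.21 and 6.43 CPM in control and 16.5, 13.9 and 9.88 CPM in ventral midbrain, and these groups overlapped (edgeR adjusted p = 0.619). GRIN2B was thus above GRIN2A in each control library and below it in each ventral midbrain library, but control replicate 4 and ventral midbrain replicate 2 were nearly level. GRIN2D and GRIN3B did not pass, at log2 fold changes of 0.44 ± 0.45 and -0.45 ± 0.54 (SE), and GRIN3B shares its 3' end with TMEM259, so its reads are uncertain. Summed over the family, NMDA receptor genes held 26.6, 17.9 and 17.6 CPM in control and 39.3, 45.6 and 30.8 CPM in ventral midbrain. GRIN1, named here after its values were seen, had no reads in any of these libraries, as given above.

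AMPA receptors carry most fast excitatory transmission. GRIA3 was the highest of this family, at 28.8, 29.6 and 32.1 CPM in control and 22.6, 24.4 and 20.3 CPM in ventral midbrain. All 3 ventral midbrain libraries lay below all control libraries, but the difference did not pass (log2 fold change -0.43 ± 0.18 SE; edgeR's adjusted p was 0.351, or 0.149 when blocked by replicate). GRIA1 held 10.99 ± 2.98 and 14.9 ± 5.79 CPM (SD, n = 3 each), with overlapping groups. GRIA2, the subunit that makes AMPA receptors impermeable to calcium and a gene chosen here after its values were seen, had 8, 50 and 52 reads in control and 0, 8 and 5 reads in ventral midbrain. Control replicate 2 fell among the ventral midbrain libraries. The low-count filter left GRIA2 out of the test, and without that filter it passed (log2 fold change -3.14, edgeR adjusted p = 0.00587). None of the 4 tested kainate receptor genes passed edgeR's test or reached an unadjusted p under 0.05. GRIK4, the highest of them, held 3.42 ± 1.12 and 6.05 ± 2.11 CPM (SD, n = 3 each), with edgeR adjusted p = 0.486.

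CBLN1, a partner gene of the ionotropic glutamate receptors, encodes a secreted protein that organises synapses. It was near 0 in control, at 0.658, 0.513 and 0.681 CPM, and held 3.12, 6.90 and 1.43 CPM in ventral midbrain. CBLN1 did not pass (log2 fold change 2.60 ± 0.67 SE, edgeR adjusted p = 0.0853), and it passed with the replicate block (adjusted p = 0.0437).

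None of the 3 tested metabotropic glutamate receptors passed edgeR's test, and 1 of them had an unadjusted p under 0.05. GRM3, a group II receptor that lowers cyclic AMP and is typical of astrocytes, was the highest, at 7.53, 16.3 and 17.4 CPM in control and 11.96, 24.7 and 18.4 CPM in ventral midbrain. In both groups replicate 2 was lowest and the ranges overlapped (edgeR adjusted p = 0.748). GRM5, a receptor that couples to phospholipase C and is known from young astrocytes, had 6 reads in all libraries and lies opposite an antisense gene, GRM5-AS1.

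Among the GABA-A channel subunits, GABRQ rose and GABRG3 fell. GABRQ (ENSG00000268089.2, chromosome X, 152638183 to 152657534, plus strand) encodes the theta subunit. Its level was 4.10, 1.54 and 4.16 CPM in control and 23.2, 10.4 and 10.4 CPM in ventral midbrain. All ventral midbrain libraries lay above all controls, with replicate 2 highest. The means were 3.27 ± 1.49 and 14.7 ± 7.41 CPM (SD, n = 3 each), a log2 fold change of 2.16 ± 0.46 (SE) with an edgeR adjusted p of 0.0456. GABRE, the epsilon subunit gene on the same chromosome, held 8.83 ± 1.13 and 10.5 ± 1.998 CPM (SD, n = 3 each) and did not pass (edgeR adjusted p = 0.813).

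GABRG3 (ENSG00000182256.12, chromosome 15, 26971282 to 27541991, plus strand) encodes the gamma-3 subunit. It held 6.66, 6.85 and 4.31 CPM in control and 1.89, 0.941 and 0.931 CPM in ventral midbrain. Every ventral midbrain library was below every control library. The means were 5.94 ± 1.41 and 1.25 ± 0.548 CPM (SD, n = 3 each), a log2 fold change of -2.23 ± 0.47 (SE) with an edgeR adjusted p of 0.0371. GABRA5 (26866363 to 26949207), its neighbour on chromosome 15, encodes the alpha-5 subunit and had 1.17, 1.54 and 4.16 CPM in control and 0.325, 0 and 0 CPM in ventral midbrain. That difference did not pass without the block (edgeR adjusted p = 0.1) and passed with it (0.0447). The neuron and endothelial marker sums, and the collagens COL1A1 and COL3A1, were also lower in ventral midbrain. Positive fold changes were found for 6 of 13 neuron, 1 of 6 endothelial and 5 of 8 mural and fibroblast markers. No endothelial marker passed. The median log2 fold change was -0.88 for the neuron list, -0.35 for the endothelial list and 0.29 for the mural and fibroblast list. The part of these cell types' RNA in the differences of GABRG3 and GABRA5 was not tested.

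The 2 subunits of the metabotropic GABA-B receptor, which must pair to reach the cell surface, were both among the most abundant receptor transcripts. GABBR1 held 19.7, 39.7 and 29.7 CPM in control and 19.4, 29.1 and 33.1 CPM in ventral midbrain. GABBR2 held 6.803, 34.5 and 22.2 CPM in control and 20.5, 38.6 and 28.6 CPM in ventral midbrain. For each gene the groups overlapped and replicate 2 was lowest in both groups, with edgeR adjusted p of 0.929 and 0.854. No glycine receptor gene reached the test; the detected ones were GLRB, which encodes the subunit that anchors the receptor, at 0.493 ± 0.311 and 0.408 ± 0.394 CPM (SD, n = 3 each), and GLRA2.

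Acetylcholine receptors showed no called difference among 8 nicotinic genes and 1 muscarinic gene tested with edgeR, where 1 nicotinic gene, CHRND, had an unadjusted p under 0.05. CHRM3, a muscarinic receptor that couples to phospholipase C, was the only muscarinic gene detected, at 15.7, 16.5 and 30.3 CPM in control and 17.3, 10.6 and 26.1 CPM in ventral midbrain. Replicate 4 was highest in both groups and the ranges overlapped (edgeR adjusted p = 0.91). Among nicotinic genes, CHRNA5 held 4.44 ± 0.573 and 7.03 ± 4.15 CPM (SD, n = 3 each) and CHRNB1, known as the muscle beta subunit, 5.47 ± 2.32 and 5.96 ± 1.16 CPM. CHRNA5 shares its 3' end with CHRNA3 on the opposite strand, so its reads are uncertain. CHRNA9 and CHRND, chosen after their values were seen, were the nicotinic genes whose groups did not overlap. CHRNA9 held 6.05 ± 0.797 and 3.94 ± 0.802 CPM and CHRND, a subunit of the muscle receptor, 1.46 ± 0.606 and 0.389 ± 0.214 CPM (SD, n = 3 each). Neither passed, with edgeR adjusted p of 0.542 and 0.362.

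The reads of CHRNA7, the alpha-7 subunit gene, are uncertain, since CHRFAM7A, a partial duplicate of it, keeps a closely similar 3' part. The end of the coding sequence, printed to show how alike the genes are, is the same in both, with 0 differences over 60 bases. It lies upstream of the transcript ends that these libraries read. The capitals mark the stop codon, and positions are GRCh38.
CHRNA7 at chr15:32168399-32168458, plus strand: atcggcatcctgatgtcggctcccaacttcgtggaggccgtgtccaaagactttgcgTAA
CHRFAM7A at chr15:30362293-30362352, minus strand: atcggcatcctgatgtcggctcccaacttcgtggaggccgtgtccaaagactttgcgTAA
Of the 31-base words in the last 500 bases of CHRFAM7A's longest transcript used here, 93.4% also occur in CHRNA7's longest transcript used here. For a shorter CHRFAM7A transcript, set against shorter CHRNA7 transcripts, the share was 88.5%. CHRNA7's longest transcript used here has 6181 bases in this reference and 6149 in the deposited quantification. Where these versions differ was not checked. Salmon gave CHRNA7 6, 35.8 and 0 reads in control and 0, 110 and 92.7 reads in ventral midbrain. It gave CHRFAM7A 367, 144 and 275 reads in control and 270, 79.9 and 236 reads in ventral midbrain. In replicate 3 of each group CHRFAM7A was lowest and CHRNA7 highest, and the split differed between libraries of the same group. Summed, they held 21.2 ± 5.95 CPM in control and 18.7 ± 4.44 CPM in ventral midbrain (SD, n = 3 each), with a log2 fold change of -0.18 ± 0.26 (SE) and an edgeR adjusted p of 0.881.

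Adrenergic receptors, through which noradrenaline acts on astrocytes, held called differences in both directions. ADRA2B (ENSG00000274286.1, chromosome 2, 96112875 to 96116245, minus strand) encodes an alpha-2 receptor, which lowers cyclic AMP. It had 0.366, 0.171 and 0.605 CPM in control and 3.64, 5.41 and 3.51 CPM in ventral midbrain. The control values lie near the level of a few reads, and all ventral midbrain libraries were far above them. The means were 0.381 ± 0.217 and 4.19 ± 1.06 CPM (SD, n = 3 each), a log2 fold change of 3.41 ± 0.61 (SE) with an edgeR adjusted p of 0.0184. ADRA2A (chromosome 10, 111077163 to 111080907), which encodes another alpha-2 receptor, went the other way, at 5.998, 7.62 and 25.6 CPM in control and 3.51, 1.57 and 4.08 CPM in ventral midbrain. Control replicate 4 stood more than 3 times above the other controls. The groups did not overlap; the log2 fold change of -2.09 ± 0.62 (SE) did not pass (edgeR adjusted p = 0.173) and passed with the replicate block (0.00571). Without control replicate 4 the log2 fold change was -1.15 (edgeR adjusted p = 0.474). ADRA2C, at 0.814 ± 0.391 and 1.21 ± 0.506 CPM (SD, n = 3 each), did not pass, and ADRA1B, an alpha-1 receptor that raises calcium, held 7.16 ± 1.09 and 5.44 ± 2.92 CPM with an edgeR adjusted p of 0.827.

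Beta adrenergic receptors raise cyclic AMP. ADRB1 (ENSG00000043591.5, chromosome 10, 114044056 to 114046908, plus strand) held 9.29, 9.67 and 9.91 CPM in control and 1.56, 4.39 and 1.93 CPM in ventral midbrain. The control libraries lay close together, and ventral midbrain replicate 3 was the highest of its group. The means were 9.62 ± 0.311 and 2.63 ± 1.54 CPM (SD, n = 3 each), a log2 fold change of -1.88 ± 0.41 (SE) with an edgeR adjusted p of 0.0457. The endothelial marker sum and the collagens COL1A1 and COL3A1 were also lower in ventral midbrain. None of the 6 endothelial markers tested with edgeR passed, and 1 of them had a positive fold change. Of the mural markers, RGS5, ACTA2 and TAGLN had positive fold changes and PDGFRB a negative one (log2 -0.16). None of these mural markers passed. The part of these cell types' RNA in the fall of ADRB1 was not tested.

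**Figure D3:**
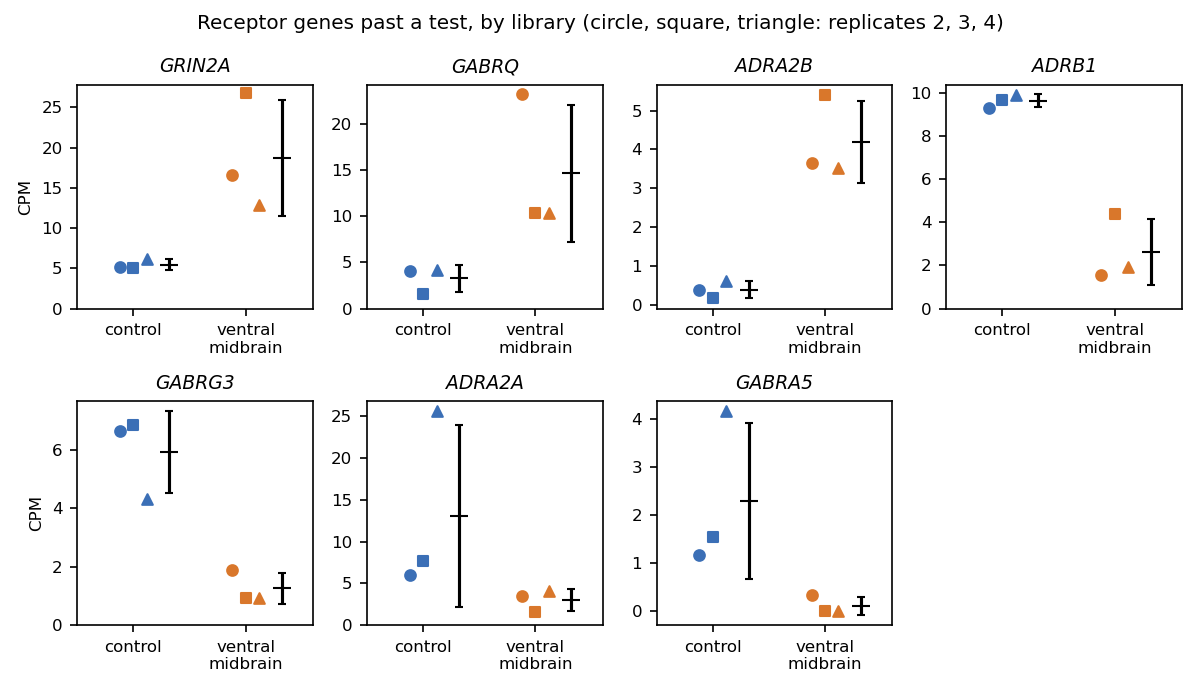
CPM in each library of the called receptor genes other than ADORA2A, and of ADRA2A and GABRA5. The main fit did not call ADRA2A and GABRA5, which passed with the replicate block, with DESeq2 and with no low-count filter. Control is in blue and ventral midbrain in orange, with circles, squares and triangles for replicates 2, 3 and 4. Black lines show each group's mean and 1 SD on either side. The groups do not overlap in any of these panels.

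Dopamine and serotonin receptors were low, and none of the 4 tested with edgeR passed, where 1 of them, HTR2A, had an unadjusted p under 0.05. DRD2 had 1.68, 2.57 and 1.59 CPM in control and 6.18, 1.49 and 1.15 CPM in ventral midbrain. Ventral midbrain replicate 2 alone stood above the controls, and the other ventral midbrain libraries lay below them (edgeR adjusted p = 0.831). HTR2A, a receptor that couples to phospholipase C, had 2.27, 2.82 and 3.403 CPM in control and 0.910, 1.02 and 0.931 CPM in ventral midbrain. The groups did not overlap, and the log2 fold change of -1.56 ± 0.53 (SE) did not pass (edgeR adjusted p = 0.22). HTR6, which raises cyclic AMP, held 1.83 ± 0.208 and 2.28 ± 1.19 CPM (SD, n = 3 each).

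Of the ATP-gated P2X channels, P2RX4 was the most abundant, at 7.46, 7.44 and 8.62 CPM in control and 4.16, 4.08 and 6.45 CPM in ventral midbrain. Its groups did not overlap, and the difference did not pass (log2 fold change -0.68 ± 0.31 SE, edgeR adjusted p = 0.431). P2RX5 was not detected, with 7, 8 and 0 reads in control and 3, 2 and 2 reads in ventral midbrain, and its readthrough gene P2RX5-TAX1BP3 had at most 4 reads in a library. None of the 3 tested P2Y receptors passed edgeR's test or had an unadjusted p under 0.05. P2RY11 was the highest of them, with 63, 72 and 61 reads in control and 70, 50 and 77 reads in ventral midbrain, and with overlapping groups (edgeR adjusted p = 0.939). Its readthrough gene PPAN-P2RY11 had no reads, and its 3' end overlaps EIF3G, so the reads are uncertain.

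ADORA1, an adenosine receptor that lowers cyclic AMP, was the most abundant purine receptor, at 25.3, 21.2 and 19.1 CPM in control and 24.4, 10.6 and 22.6 CPM in ventral midbrain. The groups overlapped, with ventral midbrain replicate 3 lowest (edgeR adjusted p = 0.897). ADORA2B, which raises cyclic AMP, had 5.56, 5.31 and 4.69 CPM in control and 1.56, 3.22 and 2.22 CPM in ventral midbrain. Every ventral midbrain library was below every control library, and the log2 fold change of -1.15 ± 0.41 (SE) did not pass (edgeR adjusted p = 0.253). ADORA3 had 6 reads, all in ventral midbrain replicate 4.

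ADORA2A (ENSG00000128271.21, chromosome 22, 24417879 to 24442360, plus strand), which encodes the other adenosine receptor that raises cyclic AMP, overlaps SPECC1L-ADORA2A (ENSG00000258555.6, 24270898 to 24442356, plus strand), a readthrough gene that runs from SPECC1L into it. The last 60 coding bases of ADORA2A, shown because both genes carry them, end in the stop codon in capitals.
ADORA2A at chr22:24441430-24441489, plus strand: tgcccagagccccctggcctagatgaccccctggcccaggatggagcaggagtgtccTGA
The reference transcripts share an identical run of 2380 bases before their ends, and 100% of the 31-base words in the last 500 bases of the readthrough transcript occur in the ADORA2A transcript. The ADORA2A transcript has 2569 bases in this reference and 2529 in the deposited quantification. Where these versions differ was not checked. Salmon gave ADORA2A 0, 0 and 0 reads in control and 16, 22 and 21 reads in ventral midbrain. It gave SPECC1L-ADORA2A 15.2, 39.1 and 32.3 reads in control and 0, 0 and 0 reads in ventral midbrain. Each row was thus at 0 in all libraries of one group, in opposite groups. Read alone, ADORA2A was at least 18.3-fold higher in ventral midbrain, against a floor of 3 reads over the control group, with an edgeR adjusted p of 0.0392, and the readthrough row passed in the opposite direction (adjusted p = 0.0206). Summed, they had 15, 39 and 32 reads in control and 16, 22 and 21 reads in ventral midbrain, and the groups overlapped. That is 2.29 ± 1.13 CPM in control and 1.42 ± 0.350 CPM in ventral midbrain (SD, n = 3 each), a log2 fold change of -0.68 ± 0.60 (SE) with an edgeR adjusted p of 0.754. With these rows merged, 5 receptor genes passed, where 2.11% of all genes did.

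**Figure D4:**
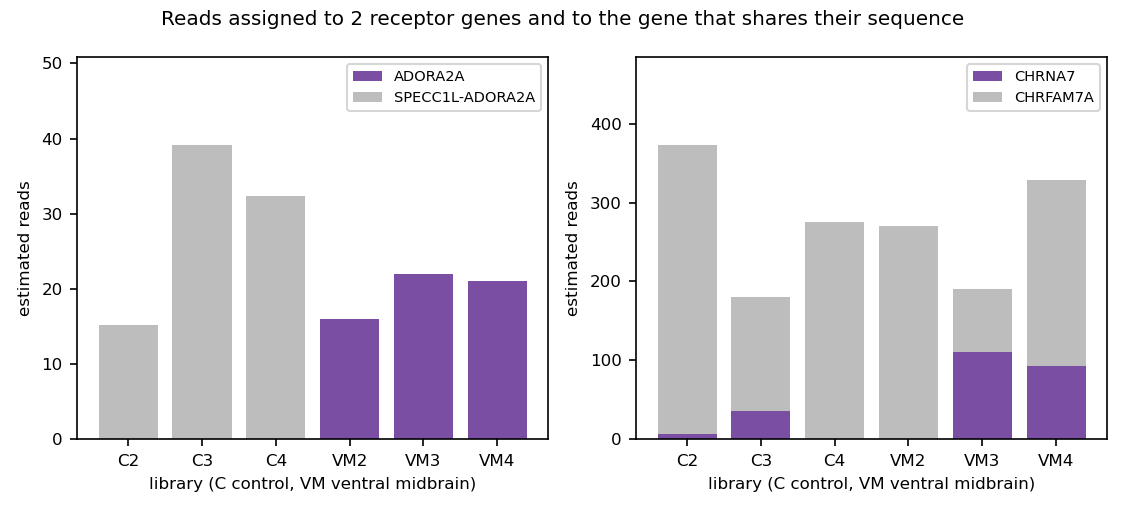
Reads in each library of ADORA2A with its readthrough gene and of CHRNA7 with its partial duplicate CHRFAM7A, as Salmon divided them, stacked so that a bar's full height is the sum of both (C, control, and VM, ventral midbrain, with the replicate number). ADORA2A has reads in ventral midbrain alone and its readthrough gene in control alone, while their sums, 15 to 39 reads in control and 16 to 22 in ventral midbrain, overlap.

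Genes that work with these receptors were read from 5 lists. Of 18 genes that release, break down, transport or convert extracellular purines, 15 were tested and 2 passed, both lower in ventral midbrain, where 2.15% of all genes passed and 1.09% passed as lower. ENPP1, an enzyme that splits extracellular ATP, held 26.3, 45.4 and 46.8 CPM in control and 11.8, 15.4 and 10.7 CPM in ventral midbrain. The groups did not overlap, and the log2 fold change was -1.65 with an SE of 0.26 (edgeR adjusted p = 0.00981). SLC29A1, a transporter that carries adenosine across the membrane in both directions, held 33.2, 34.5 and 49.0 CPM in control and 18.5, 12.4 and 19.3 CPM in ventral midbrain. Every ventral midbrain library was below every control library, with a log2 fold change of -1.22 and an SE of 0.24 (edgeR adjusted p = 0.0254). The block, which called 8.13% of all genes, added ENTPD2, an enzyme that breaks down ATP, at 19.5 ± 8.62 and 10.2 ± 5.80 CPM (SD, n = 3 each). The list summed to 152 to 193 CPM in control and 113 to 137 CPM in ventral midbrain, and its median log2 fold change was -0.091. The call of ENPP1 was lost without control replicate 4 or without ventral midbrain replicate 2 or 4, and that of SLC29A1 without control replicate 4 or any 1 of the ventral midbrain libraries.

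Of 29 auxiliary and scaffold genes of ionotropic glutamate receptors, 19 were tested and edgeR called 0, while 6 had an unadjusted p under 0.05, DESeq2 called 3 and limma voom 0. Among all genes these shares were 2.15% for edgeR, 12% for the unadjusted p, 4.67% for DESeq2, 2.1% for limma voom and 8.13% for the block, and the counts of the other lists are to be read against the same shares. The median log2 fold change of the list was 0.21. Their sum was 336 to 410 CPM in control and 419 to 578 CPM in ventral midbrain. CNIH2, an auxiliary subunit of AMPA receptors, held 33.8, 51.7 and 39.0 CPM in control and 70.2, 100.3 and 62.7 CPM in ventral midbrain. NETO2, an auxiliary subunit of kainate receptors, held 17.7, 20.9 and 15.1 CPM in control and 26.6, 46.2 and 28.9 CPM in ventral midbrain. For both the groups did not overlap, and the edgeR adjusted p was 0.0681 and 0.096 without the block and 0.000647 and 0.00511 with it. The block also called HOMER3, a scaffold that binds group I metabotropic receptors, and CBLN1 as higher, and OLFM1, a secreted protein, as lower.

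Of 12 partner genes of GABA and glycine receptors, 10 were tested with edgeR (median log2 fold change -0.13) and 0 passed, with 2 at an unadjusted p under 0.05, 1 called by DESeq2 and 0 by limma voom. With the block PLCL1, which binds GABA-A receptor subunits, passed as lower at 7.01 ± 2.76 and 2.45 ± 0.736 CPM, as did KCTD12, an auxiliary subunit of GABA-B receptors, at 40.3 ± 9.71 and 26.1 ± 2.94 CPM (SD, n = 3 each). Of 9 nicotinic partner genes, 6 were tested with edgeR (median log2 fold change -0.23), 0 passed, 0 had an unadjusted p under 0.05 and neither DESeq2 nor limma voom called one. Of these, LYPD1 passed with the block alone, at 40.7 ± 20.6 and 67.4 ± 17.3 CPM (SD, n = 3 each). Of 39 G protein, cyclase, phospholipase and calcium-store genes, 37 were tested with edgeR (median log2 fold change -0.018) and 0 passed, with 6 at an unadjusted p under 0.05, 3 called by DESeq2 and 0 by limma voom. The block called ADCY2 and ADCY9, adenylyl cyclases, as higher and ITPR3, a calcium release channel, as lower. ADCY2 held 5.34, 5.90 and 5.22 CPM in control and 16.6, 11.7 and 9.17 CPM in ventral midbrain, with no overlap (edgeR adjusted p = 0.0715 without the block).

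The calls on single receptors rest on few libraries, as each was tested again with 1 library left out. GRIN2A passed in 4 of those 6 fits and was lost without control replicate 2 or 4, at an adjusted p of up to 0.0603. ADRA2B passed without control replicate 3 or 4 and was lost in the other 4 fits, at up to 0.0804. ADRB1 passed without ventral midbrain replicate 3 alone, at 0.013, and was lost in the other 5, at up to 0.15. GABRG3, GABRQ and ADORA2A passed in none of the 6 fits, with edgeR adjusted p of 0.05 to 0.124, 0.0504 to 0.159 and 0.0864 to 0.152. In all of these fits the fold changes kept their direction, at log2 values of 1.43 to 1.99 for GRIN2A, 3.09 to 3.89 for ADRA2B, -2.46 to -1.62 for ADRB1, -2.66 to -2.05 for GABRG3 and 1.65 to 2.36 for GABRQ.

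The normalized signal the authors deposited for genes lay more than 1.1 times off the sums used here for 15 of the 78 receptor genes compared. For GRM7, a group III metabotropic receptor chosen here after its values were seen, the deposited signal was 7.64, 4.54 and 3.41 in the controls, against 6.46, 175 and 624 in ventral midbrain. The reads summed here were 35, 18 and 15 in the controls, against 32, 12 and 23 in ventral midbrain, with no such rise in replicates 3 and 4. For GRIN2A the deposited signal was 61.4, 58.3 and 72.9 in the controls, against 207, 659 and 149 in ventral midbrain, with limma's test on log2(signal + 1) at an adjusted p of 0.0675. For GABRG3 it was 107, 36.2 and 264 in the controls, against 5.32, 29.3 and 11.8 in ventral midbrain, with limma's adjusted p at 0.115. In both genes every ventral midbrain value lay on the same side of every control value as in the summed reads.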

How the data were processed

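Polyadenylated RNA of 6 libraries of H1-derived astrocytes was read from its 3' ends. The submitters' processing notes name Salmon (no version), DESeq2 1.27.12 and the build GRCh38.p13; strand use and other settings are not given in the sources used here. Per transcript, the authors deposited estimated counts, TPM and effective lengths, and they added a table of normalized gene signal, whose scaling the file does not state. TPM was not used.

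Estimated counts were summed per gene with GENCODE release 29 (205225 of 226608 transcripts matched, 90.6%, and unmatched ones held 0.992% to 1.12% of a library's reads) and rounded. Of 27439 genes with reads, edgeR's filterByExpr kept 15984. edgeR 4.0.16 (R 4.3.3, TMM, robust quasi-likelihood) compared the groups, with Benjamini-Hochberg adjustment over all of these genes. The method was also run on simulated data, whose outcome is not given here. That simulation changed only genes above a minimum level, used the common dispersion for every gene and held no pairing of libraries. It is therefore no check of calls on receptors with few reads. The common biological coefficient of variation was 0.309. SE is the size of the log2 fold change over the square root of the F statistic, and CPM uses TMM-scaled libraries. Salmon divides reads between overlapping or near-identical transcripts, so such genes are uncertain.

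Members, gene lists and rules were chosen with earlier results of these data known. By rule, named genes are members past the threshold, the 12 with the smallest p, those with a mean of at least 5 CPM, the highest detected gene of each family, genes with readthrough partners, and from each partner list those past the threshold, up to 3 of smallest p and up to 2 of highest level. Other genes named fall outside this rule. Some are said to be chosen after their values were seen or counted under a fit with the block. Others carry no such mark, such as ADRA2C, GRIN2D, GRIN3B, GLRA2, DRD1, GRM5 and the genes listed with no reads. Some receptor genes under this rule are not reported here, though counts and sums include them.

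Replicate numbers 2, 3 and 4 occur in both groups. Deviations from the group means correlated at 0.277, 0.409 and 0.25 between same-numbered libraries and at most at 0.0341 between others. These 3 values depend on each other, since deviations cancel within a group, and no label says what the numbers share. As each exceeds 0.1, the numbers are treated as pairing the libraries, from the data and not from the labels. This pairing entered only the fit with the replicate block, which is an alternative. The main fit and the fits with a library left out used no block.

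Alternatives were other scalings (RLE, upper quartile), filters, DESeq2 1.42.0, limma 3.58.1 (voom), a gene-length offset, the deposited signal on log2(value + 1), the replicate block, protein-coding genes alone, merged readthrough genes, a threshold of 0.01, other detection minimums and leaving out each library. Merging CHRNA7 with CHRFAM7A was chosen after seeing the data. Figures were drawn with matplotlib 3.10.9.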

Additional observations from a re-analysis of the deposited data

How the results depend on the processing

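The number of receptor genes past the threshold, 6, was 10 with no low-count filter, 3 with limma voom, 0 at an adjusted p under 0.01 and 0 to 2 with 1 library left out. Over all genes, 344 passed, and 1012 did with no low-count filter, 747 with DESeq2, 1300 with the replicate block and 131 to 258 with 1 library left out. The replicate block called 9 receptor genes, the 6 of the fit without it among them, and no receptor call was lost under this pairing. The median log2 fold change of tested receptor genes, 0.18, was -0.13 with a filter of 2 CPM in 3 libraries, 0.037 with the deposited signal, 3.44e-05 with ADORA2A and CHRNA7 merged with their partner genes, and -0.16 to 0.14 with 1 library left out. The fitted log2 fold change of ADORA2A read alone, 7.26, is no bound, since it rests on controls at 0; it was 7.12 to 7.40, past the threshold in none, with 1 library left out, and reversed to -0.68 in both merged fits, which add the readthrough gene's reads. With 1 library left out, the log2 fold changes of genes that never passed crossed 0 for ADORA1 (-0.40 to 0.11), CHRM3 (-0.58 to 0.16), CHRNB1 (-0.15 to 0.47), DRD2 (-0.57 to 0.98), GABBR1 (-0.35 to 0.14), HTR6 (-0.16 to 0.61), P2RY11 (-0.27 to 0.017), GABARAPL1 (-0.28 to 0.039), RAPSN (-2.23 to 0.23) and GNAS (-0.0086 to 0.20). Apart from the merged fits, the cause of these changes was not tested. At this depth, a count of 0 in a library still allows a level of up to 0.195 to 0.257 CPM.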
